A study of Mus musculus with 6 samples.

Results

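The BCL2 family sets whether a stressed cell keeps its mitochondrial outer membrane intact. RNA-seq counts of its transcripts were compared between bEND.3 cells that received a GapmeR against the long non-coding RNA Gm39822 and cells that received a negative control GapmeR. The 10 members were listed by gene symbol, and earlier results of these data were known when they were chosen. The list holds the guardians Bcl2, Bcl2l1 and Mcl1, the effectors Bax and Bak1, and the BH3-only genes Bcl2l11, Bbc3, Pmaip1, Bid and Bad. They are 10 of the 49315 genes listed in the count table, and all 10 passed the filter on low counts. bEND.3 is an immortalised mouse brain endothelial cell line, grown in medium with fetal bovine serum and not exposed to a death stimulus in the labels. A GapmeR is an antisense oligonucleotide whose modified ends flank a DNA core, so that RNase H cuts the bound RNA. The 4 GapmeR samples received an LNA GapmeR to Gm39822 at 100 nM with a lipid transfection reagent, and the 2 Negative Control samples received a control LNA GapmeR at the same 100 nM. All 6 samples come from the same line, and the labels do not say whether they were separate cultures, so p-values measure the spread between these samples only.

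Guardian proteins hold the effectors and the BH3-only proteins in check. Once released or activated, BAX and BAK oligomerise and open the outer membrane, cytochrome c leaves the intermembrane space, and APAF1 assembles with it into the apoptosome that activates caspase-9. BH3-only proteins carry stress signals to this step, and each binds through its BH3 helix into a groove on the guardians or effectors. Much of this control acts on the proteins, through binding, phosphorylation, cleavage and turnover. Counts per gene do not separate splice forms with opposed activities, such as the long and short products of Bcl2l1 and Mcl1.

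The BH3 stretch is the feature that all members share and through which they bind each other, so its coding sequence is shown for 9 of them. A script found it in the translated GENCODE vM39 coding sequences (GRCm39) as a leucine, any 3 residues, a glycine, alanine, serine or cysteine, and an aspartate. The pattern was found 1 time in each of the 9 proteins. Each line below gives 11 codons of the coding exons, 5′ to 3′, with the codons of the leucine and the aspartate in capitals.
Bcl2: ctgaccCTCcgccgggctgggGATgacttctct
Bcl2l1: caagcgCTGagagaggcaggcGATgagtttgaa
Mcl1: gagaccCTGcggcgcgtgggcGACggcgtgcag
Bax: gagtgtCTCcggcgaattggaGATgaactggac
Bak1: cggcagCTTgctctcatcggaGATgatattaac
Bcl2l11: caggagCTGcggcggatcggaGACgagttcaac
Bbc3: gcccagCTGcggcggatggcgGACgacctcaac
Bid: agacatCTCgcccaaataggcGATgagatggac
Bad: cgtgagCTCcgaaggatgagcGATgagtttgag
The leucine lies at residue 150 of 196 in the Bcl2l11 product (BIM), at 141 of 193 in Bbc3 (PUMA), at 90 of 195 in Bid and at 109 of 162 in Bad. In the multidomain proteins it lies at residue 94 of 236 in Bcl2, 90 of 233 in Bcl2l1, 194 of 331 in Mcl1, 63 of 192 in Bax and 76 of 209 in Bak1. The residue before the aspartate is glycine in 7 of the 9 proteins, alanine in Bbc3 and serine in Bad.

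Between 29261988 and 37117934 reads were counted on genes per sample. Gm39822 itself had 2, 1, 4 and 2 counts after GapmeR, against 61 and 56 for the Negative Control, a log2 fold change of -4.82 (SE 0.41, n = 4 and 2, adjusted p = 8.82e-08 in edgeR's quasi-likelihood test). Gm39822 passed the filter on low counts only through the controls, so the filter itself favoured finding it lower. The size of its fall rests on 1 to 4 counts per GapmeR sample. All 12 endothelial markers were at 1 CPM (counts scaled to a common library size) or more, and their summed level was 9170 to 10500 CPM after GapmeR and 10990 to 11440 CPM in the controls. Summed macrophage markers were 207 to 383 CPM after GapmeR, highest in GapmeR 3 and GapmeR 4, against 173 to 177 CPM in the controls, with 9 of 12 genes at 1 CPM or more. Pericyte and smooth muscle markers summed to 10.7 to 15.4 against 2.44 to 2.67 CPM (4 of 10 genes at 1 CPM or more), fibroblast markers to 18 to 96.0 against 16.7 to 17.9 CPM (4 of 8), and glial and neuronal markers to 33.2 to 56.0 against 69.2 to 69.9 CPM (7 of 10). No marker was at 0 in every sample. The part of these differences in the values that follow was not tested, and in bulk samples fewer cells of a type and less RNA per cell cannot be told apart.

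Of the 10 members, 5 passed an adjusted p of 0.05 and 5 did not. Bcl2 rose, and Bcl2l1, Bak1, Bcl2l11 and Bid fell, so the changed genes came from all 3 classes. Among all 18234 genes tested, 45.3% were called, 25.4% higher and 20.0% lower, so a share of 50% among the members was close to the background. The members also lie mostly among well expressed genes: 9 of them had a mean of at least 10 CPM, where 51.9% of 8870 genes were called. The median log2 fold change was -0.06 over the members, 0.03 over all genes tested and -0.07 over the 8870 well expressed genes. With scaling by library size alone the median of all genes moved to 0.17, and 74.1% of called genes were higher instead of 55.9%. The directions of the 5 called members held under that scaling.

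**Figure D1:**
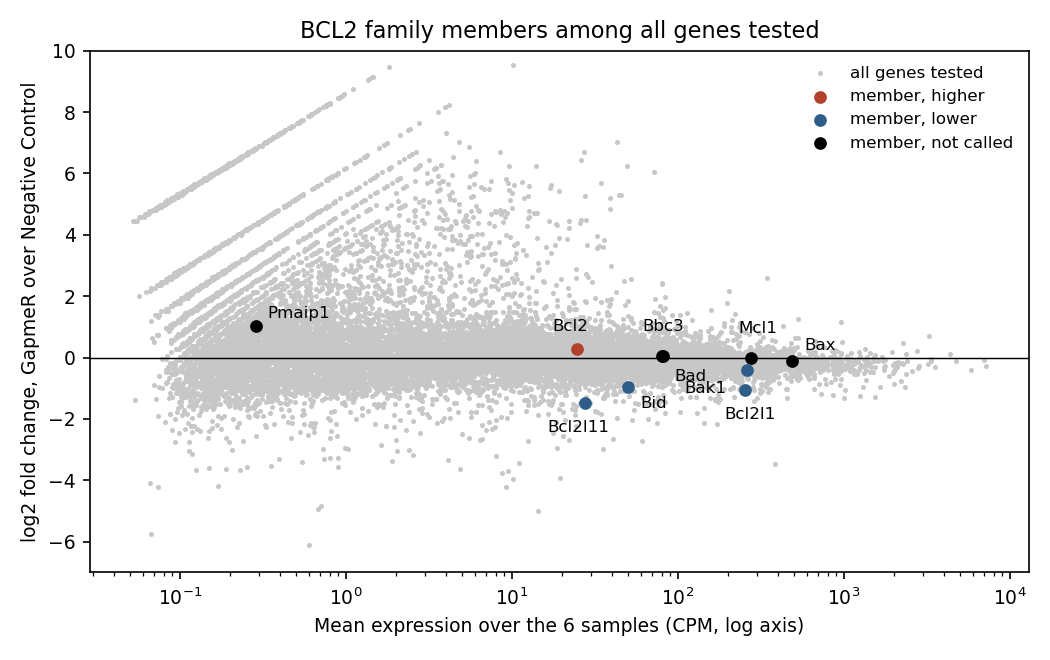
Log2 fold change of GapmeR over Negative Control (y axis) against the mean expression over the 6 samples in CPM (x axis, log scale) for the 18234 genes tested in grey, with the 10 members marked and coloured by call. Pmaip1 has the lowest expression of the members, and Bcl2l11, Bcl2l1 and Bid have the lowest log2 fold changes of the members, at -1.47, -1.05 and -0.96.

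The falls of Bcl2l11, Bcl2l1 and Bid also passed a 1.5-fold threshold, which 25.4% of all genes tested passed together with the adjusted p. Among the 3643 genes called lower, 257 fell by at least as much as Bcl2l11, 542 by at least as much as Bcl2l1 and 660 by at least as much as Bid. Bak1 stood lower in that order, with 2141 genes falling at least as much. The summed level of the 10 members was 1395 to 1446 CPM after GapmeR and 1760 to 1806 CPM in the controls. Bcl2l1 made up 13.1% of the members' counts after GapmeR and 21.6% in the controls, the largest shift of any member's share.

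**Figure D2:**
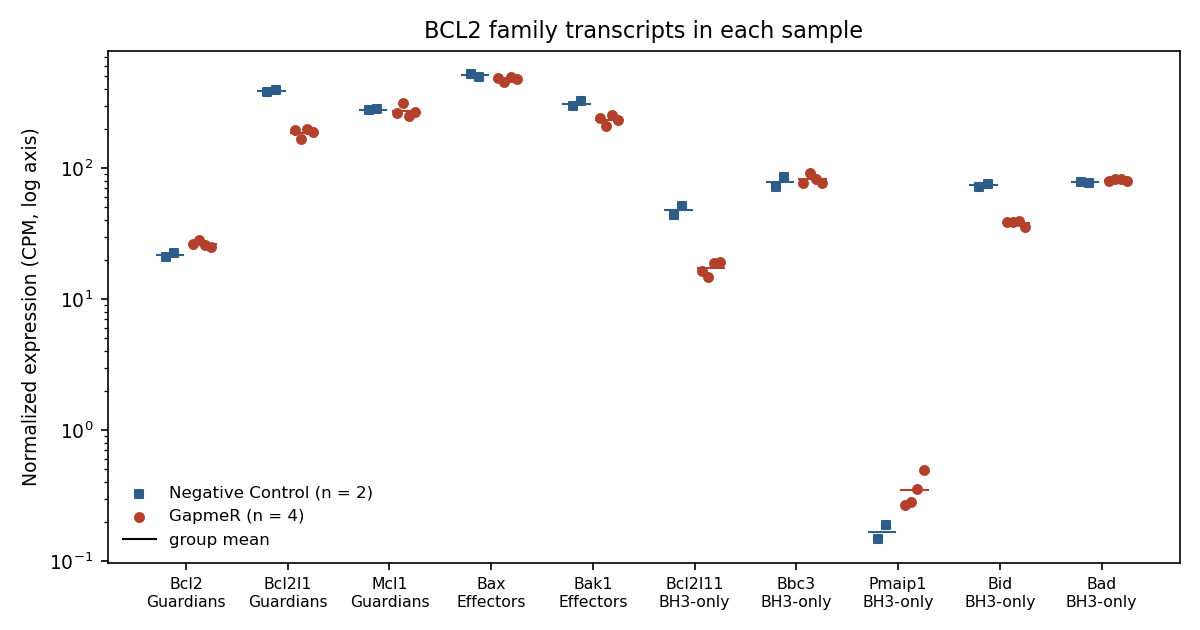
Normalised expression of the 10 members in CPM (y axis, log scale) by gene and role (x axis), with 1 point per sample for 2 Negative Control and 4 GapmeR samples and a line at each group mean. The groups stand clear of each other in Bcl2l1, Bcl2l11, Bid and Bak1, and they overlap in Mcl1 and Bbc3.

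Bcl2l1 (ENSMUSG00000007659, mm10 chromosome 2, 152758732 to 152833803, minus strand) encodes BCL-xL, a guardian of the outer membrane that endothelial cells rely on together with MCL1. It was at 193, 166, 197 and 188 CPM after GapmeR, against 379 and 391 CPM in the controls. Every GapmeR sample was well below both controls, and the values within each group lay close together. The level fell 2.07-fold (log2 fold change -1.05, SE 0.08, 95% interval -1.21 to -0.88, adjusted p = 1.97e-08 in edgeR). Between 6062 and 12466 reads per sample stood behind these values.

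Bcl2 (ENSMUSG00000057329, mm10 chromosome 1, 106538176 to 106714290, minus strand), the founding member of the family, moved the other way. Its level was 26.4, 28.3, 25.6 and 24.8 CPM after GapmeR and 21.0 and 22.5 CPM in the controls. All 4 GapmeR samples were above both controls by a small margin. The rise was 1.21-fold (log2 fold change 0.27, SE 0.09, 95% interval 0.09 to 0.45, adjusted p = 0.017 in edgeR). Without Negative Control 1 the value stayed near this, at 0.24, but the call was lost with Negative Control 2 as the sole control.

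Mcl1 (ENSMUSG00000038612, mm10 chromosome 3, 95656944 to 95663179, plus strand) encodes a guardian with a short-lived transcript and protein. It stood at 265, 313, 248 and 268 CPM after GapmeR, against 276 and 281 CPM in the controls. GapmeR 2 was above and the other GapmeR samples below both controls. The log2 fold change was -0.03 (SE 0.09, 95% interval -0.21 to 0.16, adjusted p = 0.834 in edgeR), an interval that leaves out a change as large as that of Bcl2l1.

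The effectors form the pore in the outer membrane. Bax (ENSMUSG00000003873, mm10 chromosome 7, 45461695 to 45466903, minus strand) stood at 484, 452, 497 and 475 CPM after GapmeR and at 522 and 498 CPM in the controls. All GapmeR samples were below both controls, though GapmeR 3 was within 1 CPM of Negative Control 2. The log2 fold change of -0.10 (SE 0.07, 95% interval -0.25 to 0.06) did not pass the test (adjusted p = 0.309 in edgeR), and it turned to 0.05 with scaling by library size.

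Bak1 (ENSMUSG00000057789, mm10 chromosome 17, 27019812 to 27028627, minus strand) encodes BAK, the effector that sits in the outer membrane also in healthy cells. Its level was 242, 209, 254 and 233 CPM after GapmeR and 298 and 323 CPM in the controls. The highest GapmeR sample was below the lower control. Bak1 fell 1.33-fold (log2 fold change -0.41, SE 0.08, 95% interval -0.58 to -0.23, adjusted p = 7.72e-04 in edgeR). Its adjusted p was 0.0465 without Negative Control 2.

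Among the BH3-only genes, Bcl2l11 and Bid fell and the others did not pass the test. Bcl2l11 (ENSMUSG00000027381, mm10 chromosome 2, 128126038 to 128162547, plus strand) encodes BIM, an activator that binds all guardians and is induced by loss of growth factors. It was at 16.5, 14.7, 18.8 and 19.0 CPM after GapmeR, against 43.7 and 51.7 CPM in the controls. The groups were far apart against their own spread. The fall was 2.77-fold, the largest among the members (log2 fold change -1.47, SE 0.10, 95% interval -1.69 to -1.25, adjusted p = 1.86e-08 in edgeR).

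Bid (ENSMUSG00000004446, mm10 chromosome 6, 120893119 to 120917062, minus strand) encodes the protein that caspase-8 cleaves to pass death receptor signals to mitochondria. It was at 38.7, 38.8, 39.1 and 35.4 CPM after GapmeR and at 71.3 and 76.1 CPM in the controls. All GapmeR samples were below both controls, and GapmeR 4 was the lowest. Bid fell 1.94-fold (log2 fold change -0.96, SE 0.07, 95% interval -1.11 to -0.80, adjusted p = 2.28e-08 in edgeR).

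Bbc3 (ENSMUSG00000002083, mm10 chromosome 7, 16308398 to 16318334, plus strand) encodes PUMA, a p53 target that binds all guardians. Its level was 77.5, 91.2, 83.2 and 76.7 CPM after GapmeR and 71.3 and 85.6 CPM in the controls. The groups overlapped, with a log2 fold change of 0.07 (SE 0.09, 95% interval -0.13 to 0.26, adjusted p = 0.582 in edgeR).

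Bad (ENSMUSG00000024959, mm10 chromosome 19, 6941861 to 6951905, plus strand) encodes a BH3-only protein that survival kinases silence by phosphorylation. It was at 80.2, 81.8, 82.7 and 80.0 CPM after GapmeR and at 78.2 and 76.9 CPM in the controls. The GapmeR samples were all slightly higher, by a log2 fold change of 0.07 (SE 0.07, 95% interval -0.08 to 0.21, adjusted p = 0.443 in edgeR). Scaling by library size raised it to 0.21 and past the threshold (adjusted p = 0.0158 in edgeR).

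Pmaip1 (ENSMUSG00000024521) encodes NOXA, a p53 target that binds MCL1, and was barely expressed. It had 9, 11, 11 and 16 counts after GapmeR, against 4 and 6 for the Negative Control, or 0.27 to 0.50 CPM against 0.15 and 0.19 CPM. All GapmeR values were above both controls. The log2 fold change of 1.03 had a wide interval (SE 0.52, 95% interval -0.08 to 2.13) and did not pass the test (adjusted p = 0.121 in edgeR), and the interval does not exclude a change up to that bound.

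The groups did not overlap in 8 of the 10 members, against 59.2% of all genes tested. With 4 samples against 2, an exact two-sided permutation test has 15 splits and cannot give a p below 0.0667. The 5 calls were also made without GapmeR 3 and GapmeR 4, the libraries highest in macrophage markers: Bcl2 then stood at 0.35, Bcl2l1 at -1.08, Bak1 at -0.44, Bcl2l11 at -1.59 and Bid at -0.91 on the log2 scale. DESeq2's Wald test also called 5 members.

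**Figure D3:**
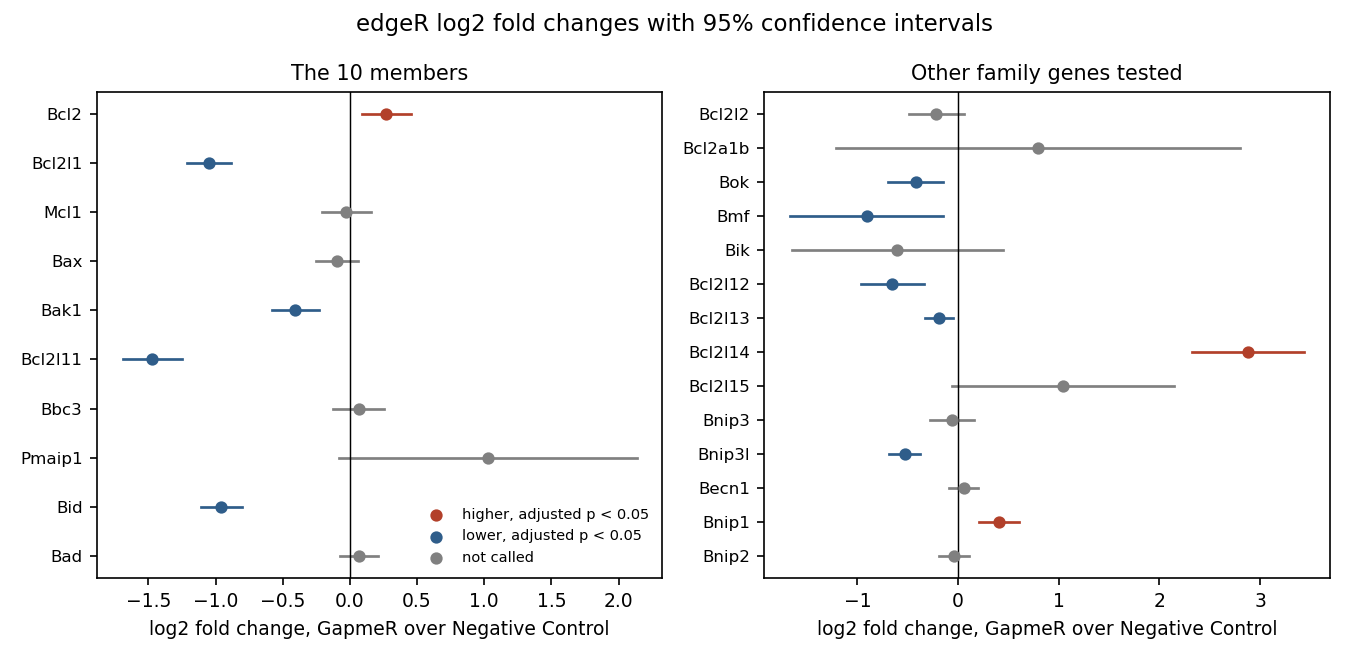
Log2 fold changes of GapmeR over Negative Control (x axis) with 95% confidence intervals for the 10 members (left) and 14 further family genes (right), coloured by call. Bcl2l11, Bcl2l1, Bid and Bak1 lie to the left of 0 and Bcl2 to the right, and Pmaip1 has the widest interval of the members. Bcl2l10 and Bnipl, with 0 and 3 counts over both controls, are left out.

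The sources used here do not state whether reads were counted by strand, so reads of genes that overlap on opposite strands cannot be told apart. Among partners that the count table lists, GENCODE vM39 shows that 31.2% of the exonic bases of Bid are shared with Bcl2l13 on the other strand, 18.2% of those of Bak1 with Ggnbp1, and 20.4% of those of Bad with Gpr137. Bcl2l13 was at 54.5 to 55.4 CPM after GapmeR and 62.4 and 62.9 CPM in the controls, a smaller difference than that of Bid. Ggnbp1 was at 0.95 to 1.45 CPM after GapmeR and 0.47 to 0.51 CPM in the controls, far below Bak1 and in the opposite direction. Gpr137 was at 41.5 to 45.3 CPM after GapmeR against 37.2 and 37.8 CPM. Bad also shares 25.2% of its exonic bases with the opposite-strand long non-coding RNA gene Gm56656, for which no counts were used here.

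Levels of different genes were compared per kb of the canonical transcript. In the controls Bax stood highest at 522 ± 17.6 CPM per kb (SD, n = 2), followed by Bak1 at 130 ± 7.52, Bcl2l1 at 118 ± 2.53, Mcl1 at 79.8 ± 1.13 and Bad at 65.3 ± 0.82 CPM per kb. Bid at 33.5 ± 1.57 and Bbc3 at 29.2 ± 3.75 CPM per kb did not differ beyond their spread in the controls, and Bcl2l11 at 9.46 ± 1.12, Bcl2 at 3.00 ± 0.14 and Pmaip1 at 0.06 ± 0.01 CPM per kb came last. On this scale Bcl2 was the lowest of the guardians.

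After GapmeR Bcl2l1 came below Mcl1 and Bad on the same scale. Bax at 489 ± 19.1 CPM per kb (SD, n = 4) and Bak1 at 98.2 ± 7.99 were still highest, then Mcl1 at 78.3 ± 7.92, Bad at 68.3 ± 1.08 and Bcl2l1 at 57.0 ± 4.34 CPM per kb. Bbc3 at 30.6 ± 2.49 and Bid at 17.3 ± 0.79 CPM per kb followed. Bcl2 at 3.63 ± 0.20 and Bcl2l11 at 3.42 ± 0.40 CPM per kb did not differ beyond their spread, and Pmaip1 was at 0.13 ± 0.04. With the length of all exons of a gene, Mcl1 at 79.8 CPM per kb stood above Bcl2l1 at 74.9 also in the controls, so the order of these guardians in control cells depended on the length used. With that length Bbc3, at 16.4 CPM per kb, also stood above Bid, at 7.52, in the controls. After GapmeR it put Bcl2l1, at 36.2 CPM per kb, above Bad, at 18.1, so their order too depended on the length used. The length of all exons also put Bcl2, at 2.85 ± 0.16 CPM per kb, above Bcl2l11, at 1.71 ± 0.20, after GapmeR.

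Ratios of counts within a sample do not depend on the scaling between samples. The ratio of Bax to Bcl2l1 counts was 2.5, 2.73, 2.52 and 2.53 after GapmeR, against 1.38 and 1.27 in the controls, a 1.94-fold difference. The ratio of Bak1 to Bcl2l1 was 1.25, 1.26, 1.29 and 1.24 after GapmeR and 0.79 and 0.83 in the controls, 1.56-fold higher. In both ratios every GapmeR sample was above both controls.

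The ratios to the other guardians went the other way or overlapped. Bax to Bcl2 was 18.3, 16, 19.4 and 19.2 after GapmeR and 24.8 and 22.1 in the controls, and Bak1 to Mcl1 was 0.91, 0.67, 1.02 and 0.87 against 1.08 and 1.15. Bax to Mcl1 overlapped between groups, at 1.45 to 2.00 after GapmeR and 1.77 and 1.89 in the controls. The summed effectors over the summed guardians were 1.5, 1.31, 1.59 and 1.47 after GapmeR and 1.21 and 1.18 in the controls, 1.22-fold higher. These ratios were described without a test, and they compare reads per gene, which also follow transcript length.

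**Figure D4:**
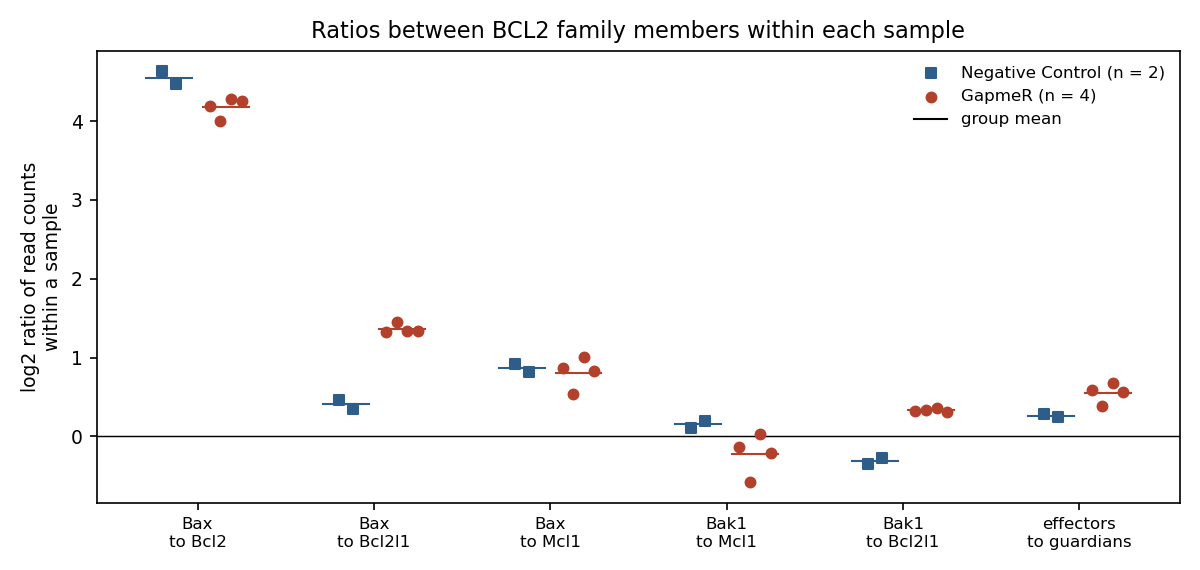
Log2 ratio of read counts of 2 members, or of summed effectors to summed guardians, within each sample (y axis) for 6 ratios (x axis), with 1 point per sample and a line at each group mean. The ratios to Bcl2l1 are higher in all 4 GapmeR samples, by 0.96 for Bax and 0.64 for Bak1 on the log2 scale, and the ratio of Bax to Bcl2 is lower in all 4.

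Beyond the 10 members, 16 of 19 further genes of the BCL2 and BNIP families passed the filter. Of these, 4 rose, 5 fell and 7 did not pass the test, with a median log2 fold change of -0.05. The share called was 56.2%, against 45.3% of all genes. Of the rises, Bcl2l10 and Bnipl passed the filter only through the GapmeR samples, so the filter itself favoured finding them higher. Bcl2a1a, Bcl2a1d and Hrk were not tested. The genes that rose were mostly weakly expressed. Over the whole count table, 22830 to 23566 genes had counts in the GapmeR samples, against 20573 and 21087 in the controls. The part of this difference in the rises was not tested. Bcl2l14, a distant family member, was at 3.42, 2.77, 3.68 and 3.68 CPM after GapmeR and 0.44 and 0.47 CPM in the controls (log2 fold change 2.88, SE 0.26, adjusted p = 2.09e-07 in edgeR). Bnipl, a relative of the BNIP2 adaptor, had 430 counts over the GapmeR samples and 3 over the controls, a ratio of 62.4 with an exact 95% counting interval of 21.2 to 304. Bcl2l10, a guardian best known from the oocyte, had 68 counts against 0, at least 4.56-fold higher with a limit of 3 counts per library. Intervals and limits from counts cover counting error only.

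Better expressed relatives changed less. Bnip3l, which encodes the mitophagy receptor NIX, was at 78.2, 84.6, 77.5 and 83.0 CPM after GapmeR and 123 and 111 CPM in the controls (log2 fold change -0.53, SE 0.07, adjusted p = 2.08e-05 in edgeR). Bnip1, a membrane fusion protein of the endoplasmic reticulum, rose from 12.1 and 11.9 CPM to between 15.4 and 16.3 CPM (log2 fold change 0.40, SE 0.09, adjusted p = 0.00237 in edgeR). Both groups stood apart in these genes.

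The other calls in this group were less stable. Bcl2l12 fell from 9.89 and 8.15 CPM to between 4.78 and 6.47 CPM (log2 fold change -0.65, adjusted p = 0.00179 in edgeR), and its adjusted p was 0.0668 without Negative Control 1. Bok, an effector relative of BAX and BAK, fell by 0.42 on the log2 scale (adjusted p = 0.0143 in edgeR; 0.143 without Negative Control 1 and 0.0629 without Negative Control 2). Bmf, a BH3-only gene, was at 0.27 to 0.71 CPM after GapmeR and 0.88 and 1.03 CPM in the controls (log2 fold change -0.91, adjusted p = 0.0492 in edgeR). Its adjusted p reached 0.275 without Negative Control 2. Bcl2l13, a mitochondrial outer membrane protein, fell by 0.19 on the log2 scale (adjusted p = 0.0311 in edgeR), and the call held without GapmeR 2 and was lost without any of the other samples. The guardian Bcl2l2, at 28 to 37.8 CPM against 31.9 and 40.1 CPM, did not pass the test with a log2 fold change of -0.21 (adjusted p = 0.191 in edgeR), but did without GapmeR 2 (-0.32, adjusted p = 0.00672). The other genes that did not pass the test were Bcl2a1b, Bik and Bcl2l15, all below 1 CPM in every sample, and Bnip3, Bnip2 and Becn1, at log2 fold changes of -0.06, -0.04 and 0.06.

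Around the family, 9 lists of apoptosis genes, the further family genes included, held 160 genes, of which 153 were tested. In them 27 genes rose and 49 fell, 49.7% in all against 45.3% of all genes tested and 51.9% of genes with a mean of at least 10 CPM. Their median log2 fold change was -0.06. That median was close to the -0.07 of well expressed genes. The balance of directions depended on the scaling: over all genes, 3643 were called lower, and 2135 with scaling by library size.

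**Figure D5:**
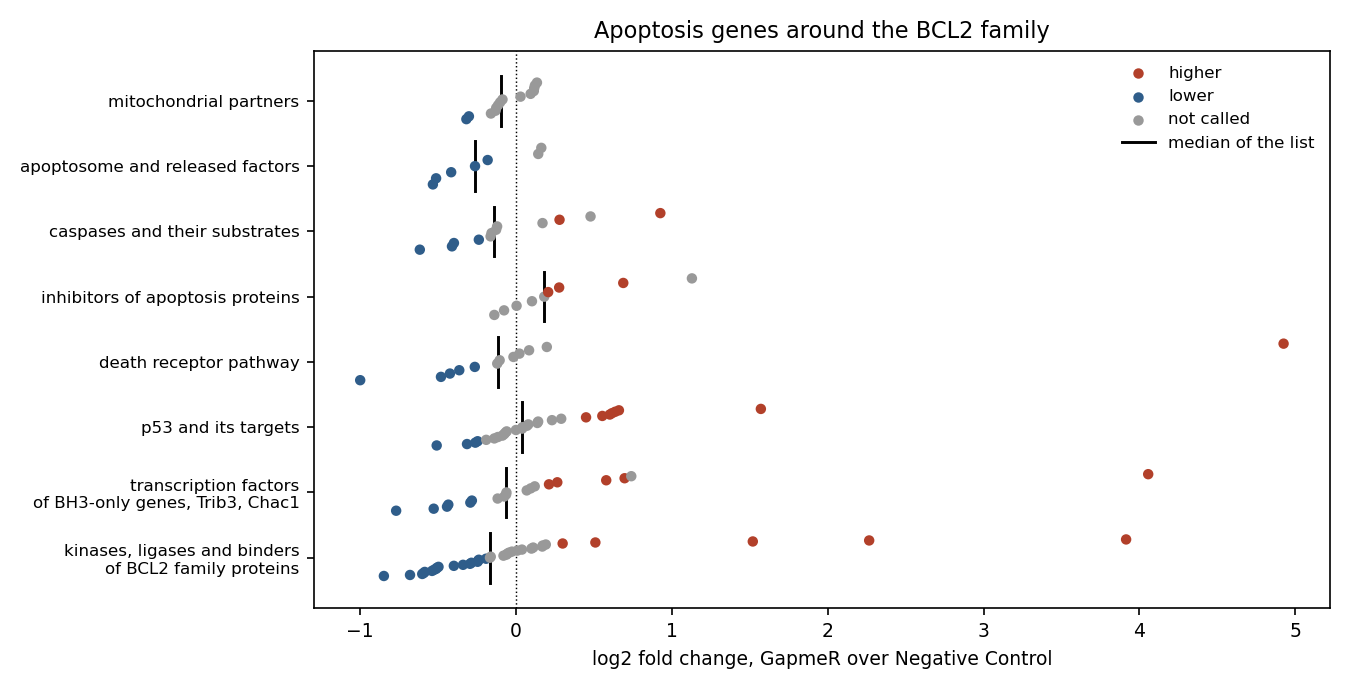
Log2 fold change of GapmeR over Negative Control (x axis) of each gene tested in 8 apoptosis lists (y axis), coloured by call, with a line at each list's median. The medians lie between -0.26 for the apoptosome list and 0.18 for the inhibitors of apoptosis. The points beyond 4 are Fasl and Runx3, which had 2 and 1 counts over both controls.

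Among the 14 mitochondrial partners, calcium channels of the endoplasmic reticulum included, 2 fell and 12 did not pass the test. The share called was 14.3%, against 45.3% of all genes and 51.9% of genes with a mean of at least 10 CPM. The median log2 fold change was -0.09. Vdac2, the outer membrane channel that anchors BAK, fell from 322 and 331 CPM to between 253 and 272 CPM (log2 fold change -0.32, adjusted p = 0.00151 in edgeR). Bcap31, an endoplasmic reticulum protein that caspase-8 cleaves, fell by 0.30 on the log2 scale (adjusted p = 0.0107 in edgeR). Without Negative Control 2 their adjusted p-values were 0.0513 and 0.12. The count was 7 without GapmeR 2 and 6 with scaling by library size. It was lower when either control was left out, and so was the count over all genes.

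Of the 7 genes of the apoptosome and the factors released from mitochondria, 5 fell and none rose. The share called was 71.4%, against 45.3% of all genes and 51.9% of genes with a mean of at least 10 CPM. The median log2 fold change was -0.26. Apaf1, the scaffold of the apoptosome, was at 44.8, 51.2, 45.1 and 51.8 CPM after GapmeR and 65.2 and 72.2 CPM in the controls (log2 fold change -0.51, adjusted p = 8.84e-05 in edgeR). Htra2, a mitochondrial protease that can cleave inhibitors of apoptosis, was at 58.3, 75.4, 59.2 and 55.4 CPM against 87.3 and 92.3 CPM (log2 fold change -0.53, adjusted p = 0.00105 in edgeR). In both genes the groups stood apart. Endog at -0.41 and Casp9 at -0.26 were called with adjusted p-values of 0.0276 and 0.0471 in edgeR, and both lost the call without Negative Control 1, at 0.41 and 0.0693. The count was 3 without GapmeR 1, GapmeR 2 or GapmeR 3. It was also lower when either control was left out, and so was the count over all genes.

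Among 12 caspases and their substrates, 2 rose and 4 fell (50% called against 45.3% of all genes, median log2 fold change -0.14). Rock1, a kinase that caspases activate to drive membrane blebbing, fell from 55.1 and 63.5 CPM to between 34.8 and 41.7 CPM (log2 fold change -0.62, adjusted p = 2.59e-05 in edgeR). Casp12 fell by 0.40 (adjusted p = 0.00625 in edgeR) and Dffb, the apoptotic DNase, stood at 0.93 (adjusted p = 0.0397 in edgeR) with overlapping groups. Without Negative Control 2 their adjusted p-values were 0.13 and 0.245. Fewer genes of this list were called when either control was left out, as were fewer genes in all.

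Of the 9 inhibitors of apoptosis tested, 3 rose, none fell and 6 did not pass the test (33.3% called against 45.3% of all genes, median log2 fold change 0.18). Birc5, which encodes survivin and is made by dividing cells, was at 36.6, 45.2, 38.3 and 43.9 CPM after GapmeR and 27.9 and 23.0 CPM in the controls (log2 fold change 0.69, adjusted p = 7.85e-05 in edgeR). All GapmeR samples were above both controls. Birc3 and Birc6 stood at 0.28 and 0.21 with adjusted p-values of 0.0338 and 0.0341 in edgeR. The count was 1 without GapmeR 1 or GapmeR 4. It was also lower when either control was left out, and so was the count over all genes.

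In the death receptor pathway, which feeds into Bid, 5 of 12 genes fell and 1 rose. The share called was 50%, against 45.3% of all genes, with a median log2 fold change of -0.11. Mlkl, the executor of necroptosis, was at 178, 156, 161 and 148 CPM after GapmeR and 308 and 334 CPM in the controls (log2 fold change -1.0, SE 0.08, adjusted p = 4.58e-08 in edgeR). This change was of the size seen for Bid and Bcl2l1. The receptor Tnfrsf1a fell by 0.48, the adaptor Fadd by 0.36 and the caspase-8 inhibitor Cflar by 0.42 on the log2 scale (adjusted p = 6.55e-04, 0.00102 and 2.68e-04 in edgeR). The gene that rose was the ligand Fasl, named after its values were seen. It had 155 counts over the GapmeR samples and 2 over the controls, a ratio of 33.8 with a counting interval of 9.19 to 281. Fasl passed the filter only through the GapmeR samples, so the filter itself favoured finding it higher.

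Of 27 tested genes of p53 and its targets, 7 rose and 4 fell. The share called was 40.7%, against 45.3% of all genes, with a median log2 fold change of 0.04. Pidd1, a death domain protein of the PIDDosome, was at 27.6, 31.4, 29.5 and 32.7 CPM after GapmeR and 9.57 and 10.8 CPM in the controls (log2 fold change 1.57, SE 0.10, adjusted p = 3.76e-09 in edgeR). The p53 ligase Mdm2 rose from 377 and 395 CPM to between 550 and 652 CPM (log2 fold change 0.64, adjusted p = 1.84e-05 in edgeR), and its relative Mdm4 rose by 0.62 (adjusted p = 1.57e-05). The growth arrest gene Gadd45a rose by 0.66 (adjusted p = 1.05e-04 in edgeR). The 4 that fell, named after their values were seen, were Ppm1d, Trp53inp1, Eda2r and Xpc. Their log2 fold changes were -0.51, -0.31, -0.26 and -0.24. The target Cdkn1a, also named after its values were seen, did not pass the test (log2 fold change -0.115, adjusted p = 0.236 in edgeR). Among the members, the p53 targets Bbc3, Pmaip1 and Bax did not pass the test in the same fit, and other members were not sorted by p53. Fewer p53 genes were called when either control was left out, as were fewer genes in all.

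The list of transcription factors known to act on BH3-only genes held 19 genes, of which 5 rose and 6 fell. The share called was 57.9%, against 45.3% of all genes and 51.9% of genes with a mean of at least 10 CPM. The median log2 fold change was -0.06. Of the rises, Runx3, named after its values were seen, passed the filter only through the GapmeR samples. Fos, a part of AP-1, was at 24, 28.3, 24.9 and 32.4 CPM after GapmeR and 50.9 and 42.4 CPM in the controls (log2 fold change -0.77, adjusted p = 9.69e-05 in edgeR). Ddit3, the stress factor CHOP, fell by 0.53 (adjusted p = 7.56e-04 in edgeR). Mybl2 rose from 19.2 and 16.9 CPM to between 27.4 and 31.5 CPM (log2 fold change 0.70, adjusted p = 1.28e-05 in edgeR), and Mybl1 rose by 0.58 (adjusted p = 0.00848, and 0.0653 without Negative Control 2). The list also holds stress response genes that are not transcription factors, named after their values were seen: the pseudokinase Trib3, which rose by a log2 fold change of 0.21 (adjusted p = 0.0212 in edgeR), and Chac1, an enzyme that degrades glutathione, which fell by 0.29 (adjusted p = 0.0114). Both are in these counts. This count was lower when either control was left out, and so was the count over all genes.

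In the largest list, the kinases, ligases and binders that act on the family's proteins, 18 of 37 genes fell and 5 rose. The share called was 62.2%, against 45.3% of all genes and 51.9% of genes with a mean of at least 10 CPM. The median log2 fold change was -0.17. Of the rises, Trim17, named after its values were seen, passed the filter only through the GapmeR samples. Sfn, a phosphoserine-binding protein that can hold phosphorylated BAD in the cytosol, was at 30.5, 22.3, 33.1 and 25.1 CPM after GapmeR and 1.64 and 2.01 CPM in the controls (log2 fold change 3.91, SE 0.21, adjusted p = 2.07e-08 in edgeR). The related survival kinases Pim1 and Pim2 moved apart. Pim2 rose from 2.52 and 1.63 CPM to between 5.31 and 6.28 CPM (log2 fold change 1.52, adjusted p = 6.92e-06 in edgeR), and Pim1 fell from 16.2 and 15.4 CPM to between 9.02 and 10.5 CPM (-0.68, adjusted p = 6.05e-05). Leaving out either control lowered this count, and lowered the count over all genes as well.

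Bcl2l11 had the largest fall among the members, so the sequence before its start is shown. The RefSeq window (GRCm38.p6) of 250 bases at chr2:128125788-128126037, plus strand, ends at the base before the annotated start, and the FOXO motif found in it is in capitals.
Bcl2l11: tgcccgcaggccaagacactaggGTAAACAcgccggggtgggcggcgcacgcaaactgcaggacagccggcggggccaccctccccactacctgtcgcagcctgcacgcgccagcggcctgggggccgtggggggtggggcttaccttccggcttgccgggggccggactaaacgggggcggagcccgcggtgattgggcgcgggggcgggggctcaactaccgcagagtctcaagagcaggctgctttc
FOXO factors are known regulators of BIM. The motif GTAAACA, searched on both strands, was found 1 time here and in 3.17% of 32851 promoter windows of the same length. The same letters were found in 1 window of Bbc3, which did not pass the test, and not in the further window of Bcl2l11. The window is GC-rich, at 72.0% against a median of 52.4% over all windows, and holds 3 GC boxes (GGGCGG, in 32.7% of windows) and 1 CCAAT box (CCAAT, in 33.8%). Windows were found for 9 members, and this match says only that these letters are present. Of the FOXO genes, named after their values were seen, Foxo1 was higher by 0.27 (adjusted p = 0.00855 in edgeR), Foxo3 was lower by a log2 fold change of -0.28 (adjusted p = 0.00862) and Foxo4 by one of -0.44 (adjusted p = 0.00138).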

How the data were processed

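RNA of 6 bEND.3 samples was sequenced after ribodepletion. The values are raw counts of reads per Ensembl gene, which the authors deposited after processing with bcbio-nextgen, trimming and alignment to mm10 with STAR. The submitters' processing notes name Trimmomatic 0.36, STAR 2.5.2b and Subread 1.5.2. The strand setting, the treatment of multi-mapped reads and the Ensembl release are not given in the sources used here.

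Samples were grouped by their titles into 4 GapmeR and 2 Negative Control samples, although the study's methods give 4 of each, and 1 further column of per-sample counts was not used. Depth was 30264086 to 37117934 counts in the GapmeR samples and 29261988 to 34266811 in the controls. Replicates differed by more than sampling noise, with a chi-square per degree of freedom of 5.20 to 24.3 over genes. Counting intervals and limits of 3 counts cover counting error only.

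The filter kept 18234 genes, those reaching 5 counts in 2 or more samples, and these were tested with edgeR 4.0.16 in R 4.3.3 (TMM factors, robust quasi-likelihood fit), with Benjamini-Hochberg adjustment over all genes tested and a threshold of 0.05. CPM are TMM-normalized. Standard errors were derived from the F statistic, as the absolute log2 fold change over its square root. Alternatives used DESeq2 1.42.0, limma 3.58.1, other scalings, filters and thresholds, a replicate block, each sample left out, and, chosen after seeing the data, leaving out GapmeR 3 and GapmeR 4. The script was tested on simulated data.

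Lengths, overlaps and coding sequences came from GENCODE vM39 (GRCm39), and mm10 positions and promoter windows from RefSeq (GRCm38.p6). The motifs searched on both strands were the GC box (GGGCGG), the CCAAT box (CCAAT), the TATA box (TATAAA), the FOXO motif (GTAAACA), the AP-1 motif (TGANTCA), the E-box (CACGTG), the ETS motif (CCGGAAGT) and the cAMP response element (TGACGTCA). The members, lists and tests were chosen with earlier results of these data known. Named from each list were up to 4 called genes with the largest change and a mean of at least 1 CPM, and every further BCL2 family gene was eligible. Some genes that this rule names are not reported here. The BH3 pattern was widened to serine and narrowed to aspartate after it was tried, and Pmaip1, which holds 2 matches, is not shown.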

Additional observations from a re-analysis of the deposited data

Results flagged for a closer look

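The values of the 4 GapmeR samples were examined for a sample far from the others, by the gap to the nearest sample as a share of the whole range (Dixon's 95% limit), in 67 measures. In 6 of them 1 sample stood out, and chance alone gives about 5% of groups. Bid was lower in GapmeR 4 (35.4 CPM, next 38.7 CPM), which was still below both controls in the same direction as the other GapmeR samples. GapmeR 2 stood out in Bcl2l2 (37.8 CPM, next 29.4 CPM), in Mybl1 (7.45 CPM, next 5.64 CPM), in the ratio of Bax to Bcl2l1 (2.73, next 2.53) and in the summed endothelial markers (9170 CPM, next 10370 CPM). The fall of Bcl2l2 passed the test without that library. GapmeR 3 stood out in the summed fibroblast markers, at 96.0 CPM with the next sample at 23.6 CPM. No cause of these values was tested.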

How the results depend on the processing

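Bcl2l1, Bak1, Bcl2l11 and Bid kept their direction and their call under every alternative fit, and Bcl2 did except without Negative Control 1. Leaving out 1 sample each gave log2 fold changes of 0.24 to 0.34 for Bcl2 (0.24, adjusted p = 0.128 in edgeR, without Negative Control 1), -0.094 to 0.039 for Mcl1 and -0.042 to 0.22 for Bbc3. Mcl1 turned positive at 0.12 with scaling by library size, at 0.022 with at least 10 counts in every sample, at 0.048 with the replicate block and at 0.075 without GapmeR 3 and GapmeR 4. Scaling by library size also turned Bax to 0.052, brought Bad past the threshold at 0.21, and gave 2135 genes called lower and 6 mitochondrial partners.

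Leaving out 1 sample each gave 5232 to 8719 genes called, 1930 to 3949 of them lower, and within the lists 5 to 9 further family genes, 0 to 7 mitochondrial partners, 2 to 4 apoptosome genes, 3 to 7 caspases, 1 to 4 inhibitors of apoptosis, 7 to 14 p53 genes, 6 to 12 genes of the transcription factor list and 14 to 27 kinases and binders. With a 1.5-fold threshold 4628 genes were called, 1390 of them lower, and 3 members, 5 further family genes, 0 mitochondrial partners, 0 apoptosome genes, 2 caspases, 1 inhibitor of apoptosis, 2 death receptor genes, 5 p53 genes, 3 genes of the transcription factor list and 7 kinases and binders. The apoptosome count was 3 with DESeq2's size factors, with no filter and with at least 10 counts in every sample, and the last gave 5 further family genes. Without GapmeR 3 and GapmeR 4, 1 mitochondrial partner and 1 inhibitor of apoptosis were called.

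Deviations of same-numbered samples from their group means correlated at -0.11 and 0.17 over 8870 genes. The deviations of the controls mirror each other, so these correlations are not independent and cannot exclude a pairing by the replicate numbers of the titles. The fit with the replicate block called 7962 genes, 5 members, 1 mitochondrial partner and 1 inhibitor of apoptosis. Per kb of all exons, the controls were at 2.36 CPM for Bcl2, 74.9 for Bcl2l1, 275 for Bax, 4.72 for Bcl2l11, 16.4 for Bbc3, 7.52 for Bid and 17.3 for Bad.

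Among single genes that did not pass the test, Bnip3 turned to 0.090 with scaling by library size, 0.022 with the replicate block and 0.042 without GapmeR 3 and GapmeR 4, and ran from -0.152 to 0.078 with 1 sample left out. Bnip2 turned to 0.109, 0.0000 and 0.023 under the same settings and to 0.0072 with at least 10 counts in every sample, and ran from -0.070 to 0.0074. Bcl2a1b was at -1.22 with the replicate block, and Bik ran from -1.19 to 0.37 with 1 sample left out. Of the other comparisons of named genes, 543 kept their side of the threshold, 63 lost the call and 3 gained it. Gm39822 could not be tested without either control, since it then misses the count filter. Depth limits Pmaip1, Bcl2l10, Bik and Bmf, which had few reads per sample.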
